A study of Mus musculus with 6 samples.

Results

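The nuclear genes of the mitochondrial respiratory chain were compared between peritoneal macrophage cultures of old and young mice. They were taken as the protein-coding genes whose symbol begins with Nduf, Uqcr, Atp5 or Cox4 to Cox8, together with Sdha, Sdhb, Sdhc, Sdhd, Cyc1 and Cycs. The annotation holds 96 such genes, and 90 of the 19973 listed genes were members. Of these, 89 had a mean of at least 10 normalized counts and were tested among 11795 genes. The member under this limit was Cox4i2, the isoform of subunit 4 linked to low oxygen and to lung, with 0 reads in each old library and 0 or 1 read in each young library. The isoform genes Cox6b2, Cox7b2, Cox8b, Cox8c and Ndufa4l2 were not analysed here.

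The respiratory chain lies in the inner mitochondrial membrane. Complex I takes electrons from NADH and complex II takes them from succinate, ubiquinone carries them to complex III, and cytochrome c carries them on to complex IV, where oxygen is reduced. Complexes I, III and IV pump protons, and complex V, the ATP synthase, uses the proton gradient to make ATP. Most subunits are encoded in the nucleus, and mitochondrial DNA encodes a few core subunits of every complex but complex II. In macrophages, respiration supports alternative activation and the clearing of dead cells, whereas strongly inflammatory activation lowers it and electron flow at complexes I and II becomes a source of signals.

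The old group was 18 months and the young group 2 months of age, with 3 libraries each. All were made from male C57BL/6 mice, a common inbred strain. Both groups had received 200 µg of zymosan A, a yeast cell wall preparation that starts a self-limiting inflammation, in the peritoneal cavity. Cells were washed out after 72 hours, kept overnight in DMEM with L-cell media, freed of unattached cells and held for 6 hours in the vehicle, phosphate-buffered saline. The design names 3 mice per group and triplicate sequencing of RNA of each mouse, but not whether a library is a mouse or a repeat run. The p-values below therefore reflect the spread from library to library only, part of which may be technical.

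Recovered read totals lay between 8163016 and 13007604 per library. Old replicate 3 stood apart, with 1.34% of its reads on nuclear ribosomal RNA genes, against 0.0177% to 0.154% in the other 5 libraries. Macrophage markers were present in every library, and 8 of 8 had at least 10 normalized counts on average. Of these 8, 5 rose and 1 fell, and their sums were 426966, 428202 and 343303 normalized counts in old and 277707, 300352 and 353846 in young libraries, with old replicate 3 again the lowest old and young replicate 3 the highest young library. Markers of other cells moved with age as well. All 8 B cell markers rose, with a summed level of 1632 to 3251 normalized counts in old and 122 to 127 in young libraries, and 5 of 6 tested mast cell markers rose (549 to 628 in old, 46.3 to 70.2 in young). All 3 tested neutrophil markers rose (8051 to 9981 in old, 740 to 807 in young), whereas the neutrophil receptor gene Cxcr2 averaged 0.708 in old and was at 0 in young libraries. All 8 cell cycle genes fell, to 3639 to 3786 in old libraries, against 23571 to 26576 in young ones. In bulk RNA, fewer cells of a type and less RNA per cell cannot be told apart, and the part of these cells and of proliferation in the differences below was not tested.

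The promoters of several members are printed because nuclear respiratory genes are known for shared binding sites of NRF1 (nuclear respiratory factor), of the ETS factor GABP (formerly NRF2) and of YY1. RefSeq windows (build GRCm38.p6) of 300 bases around the start were found by symbol for 72 of the 89 tested members, 77 windows in all. Each window was searched on both strands for GCATGCGC (NRF1), CCGGAAGT (ETS) and AAGATGGC (YY1). The NRF1 letters were in 16.9% of member windows, in 5.50% of 10958 windows of all tested protein-coding genes and in 2.71% of all 32851 windows. The YY1 letters were in 13.0%, 4.78% and 2.75% of these sets, and the ETS letters in 6.49%, 8.82% and 3.89%. At least 1 match was found in 8 of 17 members that passed the age test below and had a window, and in 19 of 55 that did not pass. A match is a description of the letters and not a site. The printed stretches run 5′ to 3′ from 120 bases before the start to 29 bases after it (start counted as 0), with the matches in capitals. Those shown are the members past the age test that have a match in this stretch, and Cycs, which is a textbook NRF1 target. Atp5k (chr5:108434370-108434519, minus strand) and Ndufaf4 (chr4:24897963-24898112, plus strand) hold overlapping NRF1 matches that read on both strands, and Ndufaf4 has a further match near its start. Ndufa6 (chr15:82354262-82354411, minus strand) and Cycs (chr6:50566540-50566689, minus strand) hold a single NRF1 match. Uqcrh (chr4:116075041-116075190, minus strand) and Atp5h (chr11:115419890-115420039, minus strand) hold the ETS letters on the opposite strand. Ndufa3 (chr7:3617253-3617402, plus strand) holds the YY1 letters just after its start.
Ndufa3: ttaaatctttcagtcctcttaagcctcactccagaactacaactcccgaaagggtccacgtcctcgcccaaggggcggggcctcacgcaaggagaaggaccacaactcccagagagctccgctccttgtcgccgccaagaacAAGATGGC
Ndufa6: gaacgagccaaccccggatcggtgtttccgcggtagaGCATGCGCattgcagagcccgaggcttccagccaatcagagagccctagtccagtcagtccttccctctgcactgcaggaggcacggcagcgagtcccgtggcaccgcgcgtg
Ndufaf4: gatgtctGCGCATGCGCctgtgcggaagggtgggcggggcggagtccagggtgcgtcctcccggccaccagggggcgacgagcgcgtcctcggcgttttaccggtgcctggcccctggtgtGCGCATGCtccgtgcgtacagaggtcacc
Uqcrh: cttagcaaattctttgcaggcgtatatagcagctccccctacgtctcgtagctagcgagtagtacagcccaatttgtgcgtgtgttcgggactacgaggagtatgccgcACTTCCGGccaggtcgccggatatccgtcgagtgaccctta
Cycs: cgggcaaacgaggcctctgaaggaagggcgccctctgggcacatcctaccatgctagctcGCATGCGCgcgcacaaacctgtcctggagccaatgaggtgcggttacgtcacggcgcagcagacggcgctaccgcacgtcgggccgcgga
Atp5h: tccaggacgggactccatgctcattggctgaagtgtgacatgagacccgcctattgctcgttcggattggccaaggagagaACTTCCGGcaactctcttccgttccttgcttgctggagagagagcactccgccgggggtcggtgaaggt
Atp5k: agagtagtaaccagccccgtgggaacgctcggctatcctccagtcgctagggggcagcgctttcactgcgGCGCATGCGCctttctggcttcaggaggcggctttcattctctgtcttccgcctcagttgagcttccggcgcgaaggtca

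Most members lay slightly higher in old than in young cultures, and few of these differences were larger than the spread between libraries. Of 89 members, 18 rose and 3 fell (limma, Benjamini-Hochberg adjusted p under 0.05). Over all tested genes 35.5% passed, 17.9% higher and 17.6% lower, so the share of members that rose, 20.2%, was close to the background, and the share that fell, 3.37%, was below it. The median difference, old minus young on the scale log2(normalized count + 1), was 0.21 over the members and 0.00 over all tested genes, and 76 of 89 members had a positive value. The 18 members that rose were 1.21 to 1.77 times higher in old, as ratios of mean normalized counts, and 3 of them exceeded 0.5 on the log2 scale. The 68 members that did not pass lay between -0.45 and 0.47.

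By complex, the medians were 0.19 for 44 members of complex I, 0.28 for 4 of complex II, 0.10 for 9 of complex III, 0.25 for 14 of complex IV and 0.20 for 17 of complex V. Complex I had 9 members higher and 1 lower, complex II 1 higher and 0 lower, complex III 1 higher and 1 lower, complex IV 3 higher and 1 lower, and complex V 4 higher and 0 lower. With 1 library left out, the medians stayed above 0 in every complex, with the lowest at 0.01 in complex III and 0.05 in complex V. For the lower counts of 0 in complexes II and V, edgeR, DESeq2 and an unadjusted limma p under 0.05 also gave 0. Whether complexes or roles differ from each other was not tested. Within complex I, 7 of 29 accessory subunit genes rose (24.1%, against 17.9% over all tested genes), with a median of 0.24. Of the 7 core subunit genes 0 passed (median 0.16), and 7 genes are too few to set against that share.

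**Figure D1:**
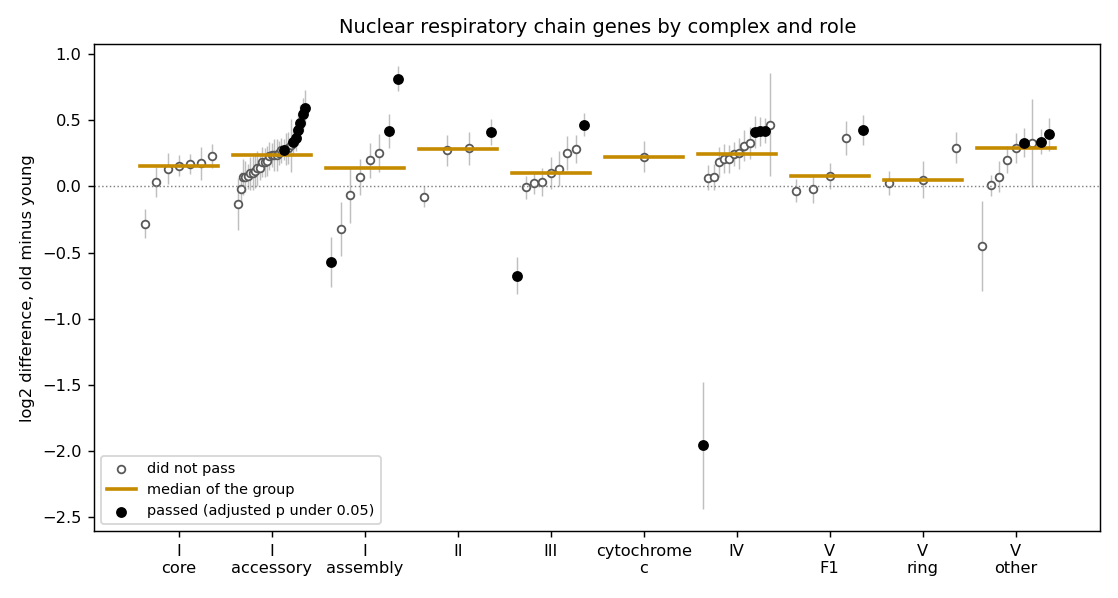
Each point is 1 tested member, placed by complex and role on the x axis, with its log2 difference (old minus young) and standard error on the y axis; filled points passed (limma adjusted p under 0.05) and the wide bars are group medians. Most points lie between 0 and 0.5, and the lowest, at -1.96, is the muscle isoform gene Cox6a2.

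The libraries within each age were not alike for these genes. Old replicate 3 was the lowest of the old libraries in 79 of 89 members (5665 of all 11795 genes), and young replicate 3 was the highest of the young ones in 74 (5399 of all genes). The members together took 0.678%, 0.688% and 0.598% of reads in old replicates 1, 2 and 3, against 0.601%, 0.604% and 0.655% in young replicates 1, 2 and 3. By this share old replicate 3 was the lowest of the 6 libraries, just under young replicate 1. By summed normalized counts it lay within the young range, with 62017 against 59216, 61080 and 69085 in young replicates 1, 2 and 3. Genes of the tricarboxylic acid cycle and pyruvate dehydrogenase showed the same library pattern, with old replicate 3 lowest of the old libraries in 16 of 20 and young replicate 3 highest of the young ones in 18. All 3 old libraries were above all young ones in 21 members (23.6%; background 24.0%) and below them in 3 (background 23.6%). Old replicates 1 and 2 were both above all young libraries in 63 members (70.8%; background 34.2%). In the plot of group medians old replicate 3 lay within the young range in complexes I, II, IV and V and below all young libraries in complex III.

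**Figure D2:**
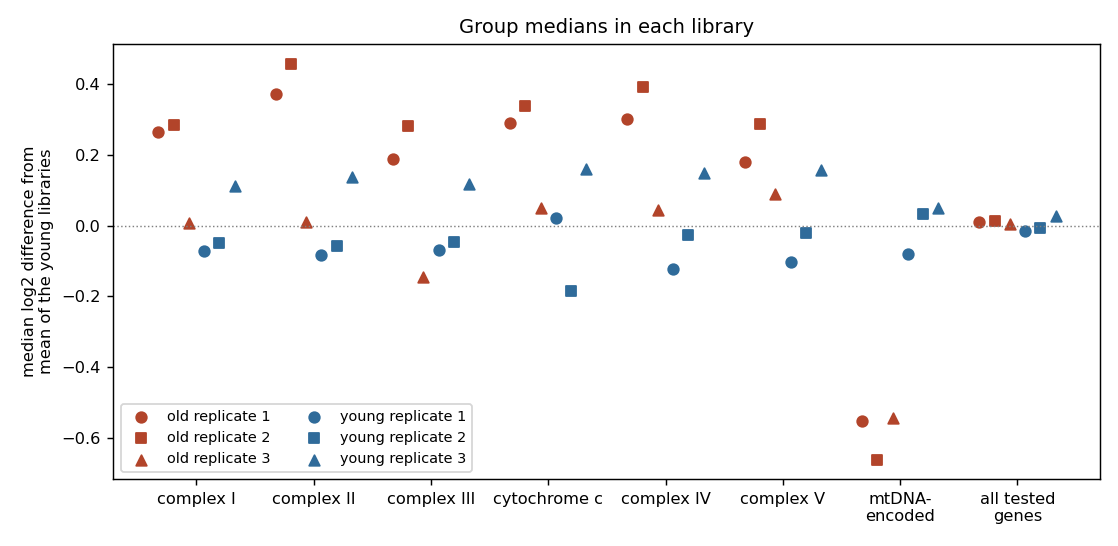
For each complex on the x axis, points give the median over its tested members of the log2 difference of 1 library from the mean of the young libraries (y axis), in red for old and blue for young libraries; cytochrome c is a single gene. Old replicates 1 and 2 lie above all young libraries in every complex, old replicate 3 does not, and the genes of mitochondrial DNA lie low in all 3 old libraries.

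In complex I the clearest difference was in an assembly gene. Ndufaf7 (chromosome 17, 78937136 to 78948052) encodes a methyltransferase that acts in the assembly of complex I. It had 208, 204 and 199 normalized counts in old replicates 1, 2 and 3, against 117, 111 and 118 in young replicates 1, 2 and 3. The groups were far apart and each was narrow, with means of 204 ± 4.28 and 115 ± 3.59 (SD, n = 3 each), a 1.77-fold difference. The age difference on the log2 scale was 0.82 ± 0.09 (SE), with a limma adjusted p = 0.000153. Ndufaf7 shares a stretch of at least 150 bases at 95% identity or more with transcripts of other genes, among them Clasp1, Dnajc11 and Frmd4b, whose log2 differences were -0.42, 0.03 and 0.49, so its reads are uncertain to that extent.

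The other assembly genes moved both ways. Ndufaf4, which encodes another complex I assembly factor, had 289, 222 and 267 normalized counts in old and 181, 178 and 221 in young libraries. Old replicate 2 was the lowest old library and lay just above young replicate 3. The gene differed on the log2 scale by 0.42 ± 0.13 (SE), limma adjusted p = 0.0305, and it did not pass when old replicate 1, young replicate 1 or young replicate 2 was left out (limma adjusted p = 0.102 to 0.123). Ndufaf6 fell, to 28.7, 29.9 and 31.8 normalized counts in old libraries, against 45.3, 50.01 and 40.6 in young ones. Its groups did not overlap, but the counts were low. On the log2 scale the difference was -0.57 ± 0.19 (SE), limma adjusted p = 0.0426, and it did not pass when old replicate 1, old replicate 2, young replicate 1, young replicate 2 or young replicate 3 was left out (limma adjusted p = 0.0555 to 0.169). The remaining 5 assembly genes did not pass.

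Accessory subunits surround the catalytic core of complex I and stabilise it. Ndufa1 (chromosome X, 37187588 to 37191163), a small membrane subunit, had 404, 391 and 304 normalized counts in old and 213, 238 and 274 in young libraries. Every old library was above every young one, although old replicate 3 came near young replicate 3. The log2 difference was 0.59 ± 0.13 (SE), limma adjusted p = 0.00709. Ndufa6 (chromosome 15, 82350140 to 82354322), a subunit of the LYR family that holds the mitochondrial acyl carrier protein, had 451, 392 and 318 in old and 263, 250.1 and 274 in young libraries. Here too old replicate 3 was the lowest old library, and the groups did not overlap. The age difference on the log2 scale was 0.55 ± 0.12 (SE), limma adjusted p = 0.00761. Both genes passed whichever library was left out.

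Ndufa3, another small membrane subunit, had 535, 515 and 422 normalized counts in old and 332, 347 and 412 in young libraries. Old replicate 3 came close to young replicate 3 without crossing it. The gene differed on the log2 scale by 0.43 ± 0.12 (SE), limma adjusted p = 0.0176, and it did not pass when old replicate 1, old replicate 2, young replicate 1 or young replicate 2 was left out (limma adjusted p = 0.0664 to 0.0796). Ndufa3 shares exon positions with Tfpt on the other strand, which had a log2 difference of 0.12 (limma adjusted p = 0.397). The accessory genes Ndufs6 (0.48), Ndufa7 (0.37), Ndufb2 (0.34) and Ndufa13 (0.28) also rose with all 6 libraries. Ndufs6, Ndufb2 and Ndufa13 share exon positions with genes on the other strand. Each of these 4 lost its call without old replicate 2 and without young replicate 1, and over all fits in which their calls were lost the limma adjusted p was 0.0503 to 0.115. The accessory gene with the highest mean, Ndufa10, did not pass. It had 872, 897 and 718 in old and 769.5, 748 and 829 in young libraries and a log2 difference of 0.08 ± 0.09 (SE). Old replicates 1 and 2 lay above all young libraries. Without both libraries numbered 3 the difference was 0.22 (limma adjusted p = 0.00508).

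None of the 7 core genes, which carry the flavin, the iron-sulfur clusters and the ubiquinone site, passed in limma with all 6 libraries, and edgeR and DESeq2 likewise called 0. At an unadjusted p under 0.05 limma gave 1 higher and 1 lower. Ndufs8, singled out after its values were seen because it ran against the rest of the core, had 353, 419.7 and 312 in old and 424, 419 and 467 in young libraries. Old replicate 2 lay just above the lowest young library. On the log2 scale the difference was -0.28 ± 0.11 (SE), limma adjusted p = 0.0784.

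Complex II, succinate dehydrogenase, links the chain to the tricarboxylic acid cycle and has 4 subunits, all of nuclear origin. Its membrane anchor gene Sdhc (chromosome 1, 171127165 to 171150603) had 1337, 1407 and 1152 normalized counts in old and 887, 961 and 1085 in young libraries. The groups did not overlap, and the nearest pair was again old replicate 3 and young replicate 3. The log2 difference was 0.41 ± 0.10 (SE), limma adjusted p = 0.0105, and it passed whichever library was left out.

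The other anchor gene, Sdhd, had 1367, 1443 and 1091 normalized counts in old and 996, 1013 and 1210.1 in young libraries, and the iron-sulfur subunit gene Sdhb had 1092, 1165 and 829 in old and 818, 784 and 905 in young libraries. In both genes old replicates 1 and 2 were above all young libraries and old replicate 3 fell among them. The log2 differences were 0.27 ± 0.12 (SE) for Sdhd and 0.29 ± 0.12 (SE) for Sdhb, limma adjusted p = 0.0994 and 0.0991. The catalytic flavoprotein gene Sdha had 2229.9, 2107 and 1932 in old and 2104, 2141 and 2359 in young libraries, where the ranges overlapped in part. The age difference on the log2 scale was -0.08 ± 0.08 (SE), limma adjusted p = 0.476.

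In complex III, the cytochrome bc1 complex, a pair of small subunit genes passed in opposite directions. Uqcrh (chromosome 4, 116066965 to 116075071), the hinge protein that helps cytochrome c to dock on cytochrome c1, had 997, 1051 and 865 normalized counts in old and 668, 692 and 742 in young libraries. All old libraries lay above all young ones. The gene differed on the log2 scale by 0.47 ± 0.09 (SE), limma adjusted p = 0.00268. Uqcrq (chromosome 11, 53427922 to 53430831), a small subunit next to cytochrome b, had 210.3, 280.4 and 184 in old and 357, 351 and 356 in young libraries. The young libraries were nearly equal and all above the old ones, which spread more widely (225 ± 49.7 against 355 ± 3.22; SD, n = 3 each). On the log2 scale the difference was -0.68 ± 0.14 (SE), limma adjusted p = 0.00472. Both genes passed whichever library was left out and share no exon position with another gene. Neither has a near copy among the annotated transcripts at 95% identity or more over at least 150 bases. The processed pseudogenes Uqcrh-ps1 and Uqcrh-ps2, both among the listed genes, do not count as near copies at this limit.

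The remaining 7 genes of complex III did not pass. Cyc1, which encodes cytochrome c1, had 663, 694 and 588 normalized counts in old and 603, 647 and 705 in young libraries, with a log2 difference of -0.01 ± 0.09 (SE). Uqcrc1, a core protein gene and the member of complex III with the highest mean, had 1339.6, 1534 and 1308 in old and 1311, 1321 and 1464 in young libraries, with a log2 difference of 0.03 ± 0.08 (SE). In both genes the age ranges overlapped almost fully. Uqcr11, the smallest subunit, had 568, 645 and 438 in old and 449, 463 and 454 in young libraries. Its young libraries were close together and old replicate 3 lay below them, with a log2 difference of 0.25 ± 0.13 (SE), limma adjusted p = 0.149.

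Cycs encodes cytochrome c, the mobile carrier between complexes III and IV that also triggers apoptosis once released. It had 359, 371 and 304 normalized counts in old and 298, 258 and 328 in young libraries. Only old replicate 3 reached into the young range, and the log2 difference was 0.23 ± 0.11 (SE), limma adjusted p = 0.156. Cycs has 4 near copies among the annotated transcripts, so its reads are uncertain to that extent.

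In complex IV, cytochrome c oxidase, Ndufa4 (chromosome 6, 11900292 to 11907497) had the smallest adjusted p. Named after complex I, its protein is a subunit of complex IV. It had 874, 852 and 738 normalized counts in old and 574, 588 and 674 in young libraries, without overlap. The log2 difference was 0.42 ± 0.09 (SE), limma adjusted p = 0.00640, and it passed whichever library was left out. Counted with complex I, as its symbol has it, Ndufa4 brought that complex to 10 higher and 1 lower of 45 and left complex IV with 2 higher and 1 lower of 13.

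Cox6b1, a subunit at the dimer interface on the intermembrane side, had 1771, 1891 and 1457 normalized counts in old and 1163, 1235 and 1429 in young libraries. Old replicate 3 was only slightly above young replicate 3. The age difference on the log2 scale was 0.42 ± 0.11 (SE), limma adjusted p = 0.0167, and it did not pass when old replicate 1, old replicate 2, young replicate 1 or young replicate 2 was left out (limma adjusted p = 0.0656 to 0.0707). Cox7a2, the widespread isoform of subunit 7a, rose as well (0.41), although its groups overlapped, and it did not pass when old replicate 1, old replicate 2, young replicate 1 or young replicate 2 was left out (limma adjusted p = 0.0985 to 0.112). Cox4i1, the member of complex IV with the highest mean, had 2710.3, 2789 and 2115 in old and 2040.0, 2190.1 and 2449 in young libraries. Old replicate 3 fell within the young range, and the log2 difference was 0.18 ± 0.11 (SE), limma adjusted p = 0.241.

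The isoforms known from heart and skeletal muscle were close to the limit of detection. Cox6a2 had 3, 6 and 2 reads in old and 11, 27 and 22 reads in young libraries, which gave means of 3.75 ± 1.30 and 17.8 ± 6.35 normalized counts for old and young (SD over 3 libraries of each age). Each young library was above each old one. The gene differed on the log2 scale by -1.96 ± 0.48 (SE), limma adjusted p = 0.0115, and it did not pass when young replicate 2 was left out (limma adjusted p = 0.0899). Cox6a2 shares exon positions with Itgad on the other strand, so reads of these genes cannot be told apart. Muscle markers (3 of 5 listed) summed to 1.20 to 2.56 normalized counts in old and 1.75 to 5.07 in young libraries. Cox7a1 had 14.3, 19.7 and 15.2 in old and 7.04, 16.7 and 12.7 in young libraries, which overlapped, and a log2 difference of 0.47 ± 0.39 (SE).

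In complex V the catalytic head, the rotor ring and the remaining subunits were counted apart. Atp5b, the catalytic beta subunit and the member with the highest mean, had 8897, 8689.7 and 7427 normalized counts in old and 7315, 7577 and 8754 in young libraries. The ranges overlapped and the log2 difference was 0.08 ± 0.10 (SE), limma adjusted p = 0.557. Under quantile normalization its sign turned, to -0.21, and it passed (limma adjusted p = 0.0147). Atp5e, the small epsilon subunit of the central stalk, had 1114, 1254 and 939.9 in old and 804, 741 and 910.1 in young libraries. The groups did not overlap, with old replicate 3 nearest to the young libraries. On the log2 scale the difference was 0.42 ± 0.11 (SE), limma adjusted p = 0.0177, and it did not pass when old replicate 1, old replicate 2, young replicate 1 or young replicate 2 was left out (limma adjusted p = 0.0583 to 0.0805).

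The 3 genes of the ring subunit c encode the same mature protein with different import signals, and none passed in limma, edgeR or DESeq2 (1 higher and 0 lower at an unadjusted p under 0.05). Atp5g1 had 451, 489 and 409 normalized counts in old and 356, 322 and 426 in young libraries, with a log2 difference of 0.29 ± 0.11 (SE) (limma adjusted p = 0.0749). Atp5g2, with 130.3, 161 and 144 in old and 119, 141 and 161 in young libraries, and Atp5g3, with 1222, 1301 and 1087 in old and 1187, 1076 and 1284 in young libraries, gave log2 differences of 0.05 and 0.03. All 3 genes had overlapping groups. Both Atp5g2 and Atp5g3 turned below 0 once length and GC trends were removed, at -0.07 and -0.13.

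Among the stalk and membrane subunits, 3 of 9 rose. Atp5h, subunit d of the peripheral stalk, had 1156, 1074 and 964 normalized counts in old and 751, 868 and 909 in young libraries, without overlap, and a log2 difference of 0.34 ± 0.10 (SE), limma adjusted p = 0.0215. Atp5k, subunit e at the dimer interface, had 668, 710.3 and 526 in old and 432, 471 and 538 in young libraries, where old replicate 3 lay below young replicate 3, and a log2 difference of 0.40 ± 0.12 (SE), limma adjusted p = 0.0341. Atp5j2, subunit f, had 1091, 1194 and 902 in old and 801, 794 and 929 in young libraries, with the same crossing, and a log2 difference of 0.33 ± 0.11 (SE), limma adjusted p = 0.0425. None of these calls held without old replicate 1, old replicate 2, young replicate 1 or young replicate 2, where the limma adjusted p was 0.0545 to 0.0953 for Atp5h, 0.101 to 0.126 for Atp5k and 0.133 to 0.152 for Atp5j2. Atp5f1, subunit b of the peripheral stalk and the member with the highest mean there, had 1864, 1827 and 1503 in old and 1400.2, 1429 and 1674 in young libraries and did not pass (0.20 ± 0.10 (SE), limma adjusted p = 0.153).

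**Figure D3:**
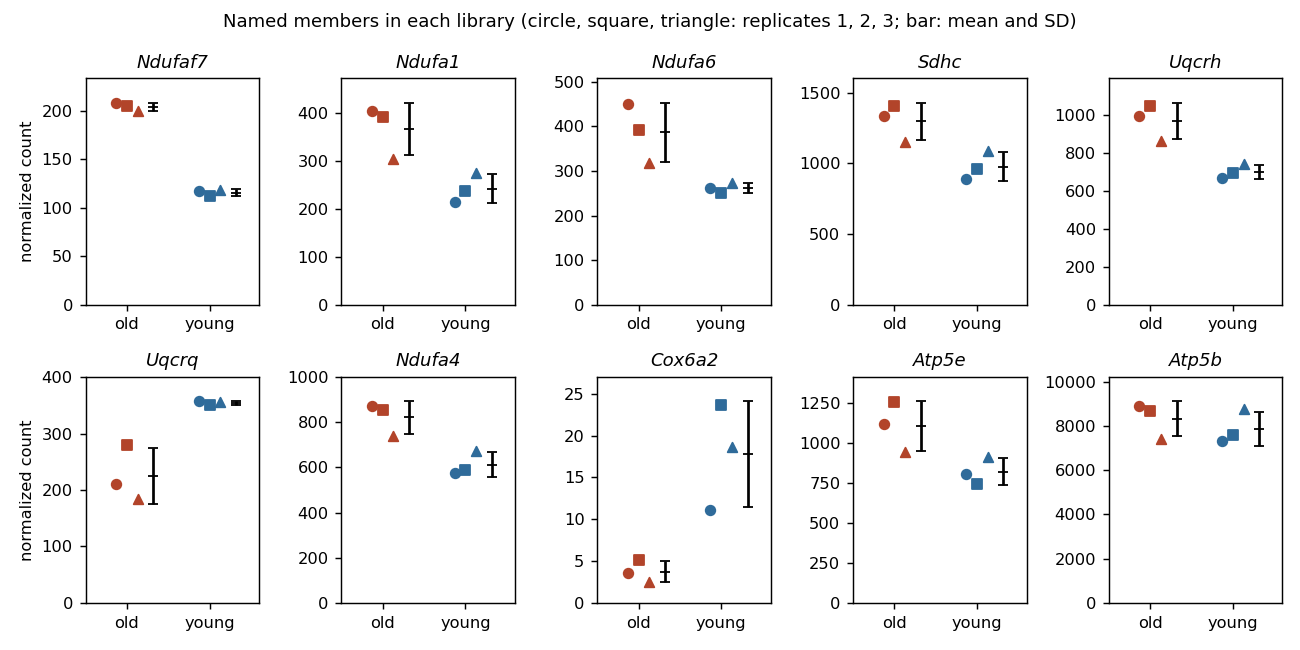
Normalized counts (y axis, from 0) of 10 members in old (left, red) and young (right, blue) libraries, with circles, squares and triangles for replicates 1, 2 and 3 and bars for mean and SD (n = 3 each). Ndufaf7, Uqcrh and Uqcrq separate the ages clearly, whereas the Atp5b ranges overlap, and the triangles lie closer together than the other symbols in most panels.

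Without old replicate 3 the count of members that rose was 53 and of those that fell 4, against a background of 23.6% higher and 24.6% lower among all tested genes (48.2% in all). The share of members that rose, 59.6%, was then above the background. All 21 members that passed with 6 libraries were among these 57, and they made up 36.8% of them. The median difference was 0.30 over the members and 0.01 over all tested genes. Higher members numbered 26 of 44 in complex I, 3 of 4 in complex II, 5 of 9 in complex III, 10 of 14 in complex IV and 8 of 17 in complex V. Among the core genes of complex I, 4 of 7 rose, with a median of 0.21.

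Measured as a ratio, the adjusted p changed most in Ndufb9, Sdhb and Uqcr11. Ndufb9, an accessory subunit gene of complex I, had 776, 797 and 574 normalized counts in old and 586, 572 and 641 in young libraries, so that old replicate 3 lay within the young range. Its log2 difference was 0.24 with all libraries (limma adjusted p = 0.158) and 0.39 without old replicate 3 (limma adjusted p = 0.00120). For Sdhb it was 0.43 without that library (limma adjusted p = 0.000624) and for Uqcr11 0.41 (limma adjusted p = 0.00132). Cyc1 (0.06), Uqcrc1 (0.07), Sdha (-0.02) and Atp5b (0.16) did not pass in this fit either.

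The other libraries acted the opposite way or less. The members that rose numbered 7 without old replicate 1, 7 without old replicate 2, 6 without young replicate 1, 7 without young replicate 2 and 27 without young replicate 3. Calls over all 11795 tested genes moved as well. With 1 library left out they ran from 2927 to 5685 in either direction, against 4183 with all 6 libraries. These member counts are therefore not a result about the members alone. The share of all genes that rose in each of these fits is not given here, so the counts cannot be set against it. Without both libraries numbered 3, 68 rose and 5 fell, with a median of 0.36, against a background of 30.3% higher and 28.8% lower (59.0% in all). Of the 21 calls, 7 held in each of the 6 fits that left out 1 library, namely Ndufaf7, Ndufa1, Ndufa6, Ndufa4, Sdhc, Uqcrh and Uqcrq. In 3 members old replicate 3 was the highest old library and young replicate 3 the lowest young one, and they were singled out after their values were seen. They were Ndufaf6, given above, Atp5l and Ndufab1. Atp5l, subunit g of complex V, had 37.0, 35.0 and 73.7 normalized counts in old and 74.4, 82.5 and 40.6 in young libraries, with 9 near copies among the annotated transcripts. Ndufab1, the mitochondrial acyl carrier protein gene, had 128, 137 and 192 in old and 156, 209.7 and 135 in young libraries. Neither Atp5l nor Ndufab1 passed with all libraries, at -0.45 and -0.13, while Atp5l passed without old replicate 3 (-0.79, limma adjusted p = 0.0292).

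**Figure D4:**
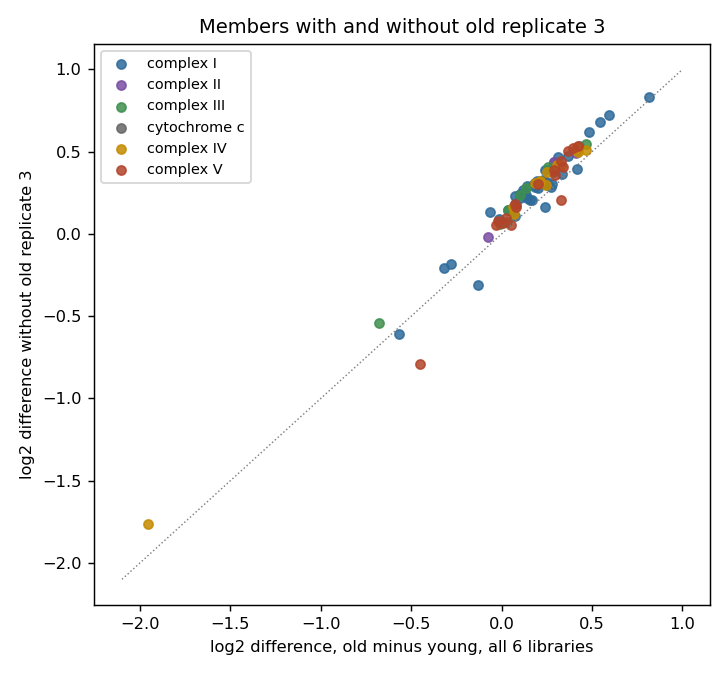
Each point is 1 tested member, coloured by complex, with its log2 difference (old minus young) in all 6 libraries on the x axis and without old replicate 3 on the y axis; the dotted line marks equal values. Both axes share the young libraries and 2 old ones. Among the 76 members with a positive value, 73 lie above the line.

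Many members, though not all, have short transcripts. The median length of their representative transcripts was 908 bases, against 2944 for all tested genes, and 48 of 89 were under 1000 bases. Of these 48, 13 rose (27.1%) and 1 fell (2.08%), with a median of 0.24. Of the 41 longer ones 5 rose (12.2%) and 2 fell (4.88%), with a median of 0.18. Over all tested genes 17.9% rose and 17.6% fell, and whether the short and longer members differ was not tested. With trends of length and GC content removed within each library, 15 members rose and 5 fell, against a background of 17.7% higher and 16.9% lower (34.6% in all), and the median was 0.09. By complex the medians were then 0.07 in complex I, 0.12 in II, 0.02 in III, 0.15 in IV and 0.07 in V. Those 15 had all risen before the removal, and the calls lost were Atp5h, Atp5j2 and Cox7a2. Ndufs8 then fell, with a log2 difference of -0.45 (limma adjusted p = 0.00280), as did the assembly gene Ndufaf8 (-0.47). With the trends removed and old replicate 3 left out, a combination chosen after seeing the data, 30 rose and 5 fell, with a median of 0.14 and a background of 22.4% higher and 22.7% lower (45.1% in all).

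Shared reads could blur some of these genes. Exon positions shared with a gene on the other strand concern 28 tested members, among those described Ndufa3, Ndufa13, Ndufab1, Ndufb2, Ndufs6, Cox4i1, Cox6a2, Atp5f1 and Atp5l, and near copies concern 26, among them Uqcr11, Cycs, Atp5h, Atp5k, Atp5g1 and Atp5g2. Among the 42 members that share no exon position with another gene and have no near copy, 11 rose and 2 fell, with a median of 0.22. These shares were 26.2% higher and 4.76% lower, against 17.9% and 17.6% over all tested genes.

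The subunit genes of mitochondrial DNA lay lower in old cultures. Of 7 measured here, 5 fell and 0 rose, with a median of -0.65, and 0 were higher at an unadjusted p under 0.05 or in edgeR or DESeq2. Over all tested genes 17.6% fell and 17.9% rose, and 7 genes are too few to set against these shares. Their difference from the nuclear members was not tested. Mt-Nd5, a membrane core subunit of complex I, had 1267, 1407 and 1368 normalized counts in old and 2452, 2524 and 2242 in young libraries. Mt-Nd4, its neighbour in the proton-pumping arm, had 624, 661 and 716 in old and 988, 1069 and 1082 in young libraries. In both genes all old libraries were far below all young ones, and old replicate 3 did not stand apart. The log2 differences were -0.84 ± 0.07 (SE) for mt-Nd5 (limma adjusted p = 2.45e-05) and -0.65 ± 0.08 (SE) for mt-Nd4 (limma adjusted p = 0.000164). Also lower were mt-Nd2, mt-Nd1 and mt-Cytb, the cytochrome b gene of complex III, at -0.50, -0.27 and -0.72. Mt-Co1, the catalytic subunit gene of complex IV, did not pass, at -0.07 ± 0.11 (SE). With length and GC trends removed, 3 of the 7 fell (background 16.9% lower) and the median was -0.53, and mt-Nd1 (-0.24) and mt-Nd2 (-0.40) no longer passed. With old replicate 3 left out as well, 3 of the 7 fell (background 22.7% lower) and the median was -0.26. The other 6 genes of this kind were not analysed here.

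**Figure D5:**
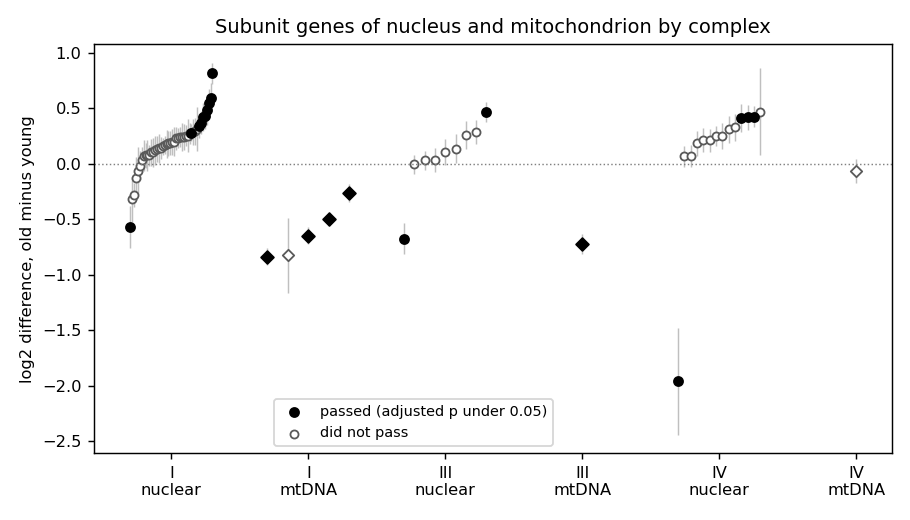
Log2 differences (old minus young, y axis, with standard errors) of nuclear members (circles) and of subunit genes in mitochondrial DNA (diamonds) for complexes I, III and IV on the x axis; filled symbols passed (limma adjusted p under 0.05). All 7 genes of mitochondrial DNA lie below 0, from -0.84 to -0.07, whereas 38 of 44 nuclear genes of complex I lie above 0.

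Factors that build the complexes were also measured. Of 42 tested assembly factors outside the symbol rule, 4 rose and 1 fell, with a median of 0.18. These shares, 9.52% higher and 2.38% lower, were both below the background of 17.9% and 17.6%. Sdhaf4, which helps to mature the flavoprotein of complex II, had 109, 138 and 108 normalized counts in old and 74.4, 73.7 and 80.3 in young libraries, with a log2 difference of 0.62 ± 0.14 (SE) (limma adjusted p = 0.00708). Pet100, an assembly factor of complex IV, had 197, 223 and 183 in old and 139, 168 and 149.6 in young libraries, with a log2 difference of 0.40 ± 0.12 (SE) (limma adjusted p = 0.0246). Both had non-overlapping groups. The lower factor was Atpaf1, a chaperone for the beta subunit of complex V, at -1.02.

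Of 18 tested regulators of mitochondrial genes, 0 rose and 4 fell in limma, as in edgeR and DESeq2, and 1 was higher at an unadjusted p under 0.05. The share that fell, 22.2%, was close to the background of 17.6%. Their median was -0.11, and 6 had a positive value. Nrf1, the factor whose letters are marked in the promoters above, had 349, 349 and 333 normalized counts in old and 453, 479 and 499 in young libraries. The groups did not overlap, and the log2 difference was -0.47 ± 0.08 (SE), limma adjusted p = 0.00108. Gabpb2, a partner of the ETS factor Gabpa, had 750.5, 701 and 902 in old and 1141, 1072 and 987 in young libraries, with a log2 difference of -0.45 ± 0.10 (SE) (limma adjusted p = 0.00752). Gabpb1, another such partner, and Polg, the mitochondrial DNA polymerase gene, fell by 0.43 and 0.36 on the log2 scale. Tfam, which packages and transcribes mitochondrial DNA, had 268, 252 and 203 in old and 272, 261 and 296 in young libraries and did not pass (-0.20).

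Pathways that feed or use the chain had few calls with all libraries. Of 20 genes of the tricarboxylic acid cycle and pyruvate dehydrogenase, 1 rose and 2 fell, with a median of 0.02. Over all tested genes 17.9% rose and 17.6% fell. Without both libraries numbered 3, 10 of these 20 rose and 2 fell, with a median of 0.18. In that fit 30.3% of all tested genes rose and 28.8% fell. Calls over all tested genes also increased, from 4183 to 6964. Ogdh, a subunit of the 2-oxoglutarate dehydrogenase complex, fell to 2201, 2157 and 2183 normalized counts in old libraries, against 2597, 2609 and 2523 in young ones (-0.24, limma adjusted p = 0.0109). Idh3b, a subunit of the NAD-dependent isocitrate dehydrogenase, rose (0.26, limma adjusted p = 0.0280). Among 7 other entries to ubiquinone, the sulfide oxidoreductase gene Sqor rose (0.36) and the electron transfer flavoprotein gene Etfa fell (-0.33). Among 7 carriers and pores, Ucp2, an inner membrane carrier, fell to 2380.5, 2660.1 and 2557 normalized counts in old libraries, against 3327, 3417 and 3236 in young ones (-0.39, limma adjusted p = 0.00162), and the other 6 did not pass.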

How the data were processed

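The values deposited by the authors are a signal: normalized counts, in which the reads of each Ensembl gene were scaled by 1 size factor for each library. DESeq2 and mm10 are named, without versions, in the submitters' processing notes. Per the labels, libraries followed the TruSeq protocol. Not given in the sources used here are the aligner, the counter and the use of strand. Values were whole multiples of a step in each column, and the share that came out as whole reads was 100% in every library (tolerance 0.01). Symbols, biotypes, positions and lengths come from GENCODE M21 on GRCm38, and 19917 identifiers matched while 56 did not.

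The members and gene lists were chosen with earlier results of these data known. Old and young were compared with limma 3.58.1 in R 4.3.3 on log2(normalized count + 1), with a trend in the prior variance, over 11795 genes with a mean of at least 10, and Benjamini-Hochberg adjustment over all of them at 0.05. Differences on this scale understate the change of low genes. The fit was tested on simulated data, in which far fewer genes were changed than passed here. It recovered 14% of changes of 1.25-fold, 57.2% of 1.5-fold, 76.8% of 2-fold and 92.8% of 4-fold. Of its calls there 6.81% were false. A member that did not pass may therefore still differ by a small fold. Alternatives were another pseudocount or filter, quantile and median scaling, robust or weighted limma, edgeR 4.0.16 and DESeq2 1.42.0 on recovered reads, protein-coding genes only, removal of length and GC trends, the replicate block, and libraries left out. Exon overlaps came from the annotation and near copies from blastn 2.17.0 (at least 95% identity over at least 150 bases). Strand being unknown, reads of overlapping genes cannot be told apart, which concerns 28 tested members, and 26 have a near copy.

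Named members were those of complex II, Cyc1, Cycs, the isoform genes and subunit c genes, up to 3 passing members with the smallest adjusted p and the member with the highest mean in each role group, passing members against their complex's median, and the 3 whose adjusted p changed most, as a ratio, without old replicate 3. From each pathway list the 2 passing genes with the smallest adjusted p were named. Other genes named were chosen after their values were seen, and an item that the rule would name is not reported here.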

Additional observations from a re-analysis of the deposited data

How the results depend on the processing

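The median difference stayed above 0 in each of complexes I to V under every alternative. It ranged with 1 library left out from 0.14 to 0.29 in complex I, 0.19 to 0.41 in complex II, 0.01 to 0.24 in complex III, 0.18 to 0.35 in complex IV and 0.046 to 0.284 in complex V. It was larger in complex III with array quality weights (0.28). Without both libraries numbered 3 it was larger in every complex, at 0.34 in complex I, 0.49 in II, 0.30 in III, 0.43 in IV and 0.27 in V. It was smaller in every complex with length and GC trends removed, at 0.068 in complex I, 0.12 in II, 0.022 in III, 0.149 in IV and 0.073 in V. Weights were 0.247 for old replicate 3 and 0.468 for young replicate 3.

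Counts of calls moved far more. Against 21 member calls, 18 higher and 3 lower, there were 35 (31 higher) under quantile normalization, 39 (37 higher) under median centring, 11 (8 higher) in limma without the trend, 69 (63 higher, 6 lower) with array quality weights, and 73 (68 higher, 5 lower) without both libraries numbered 3. There were 5 lower with length and GC trends removed, 1 lower with a mean of at least 50, and 35 (30 higher, 5 lower) with both trends removed and old replicate 3 left out, chosen after seeing the data. With 1 library left out the calls ran from 8 to 57, higher ones from 6 to 53 and lower ones from 1 to 4, and all-gene calls from 2927 to 5685. All-gene calls, 4183 in the reported fit, were 7634 with weights and 6964 without both libraries numbered 3. For the other scalings, the higher mean limit and the fit lacking a trend in the prior variance, all-gene calls are not given here. The member counts of those fits therefore cannot be set against a background. The cause of the shifts in calls was not tested.

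Same-numbered libraries had deviations correlated at -0.38, -0.36 and -0.68. Old replicate 3 correlated at 0.50 and 0.41 with young replicates 1 and 2. Young replicate 3 correlated at 0.48 and 0.54 with old replicates 1 and 2. Old replicate 1 with young replicate 2 gave -0.26, and old replicate 2 with young replicate 1 gave -0.38. The deviations were taken from the mean of each age, so these values depend on each other. They cannot show whether replicate numbers pair the samples. With the replicate block 8 members passed (6 higher) and 2643 genes in all. With the block and the trends removed, 10 members (7 higher) and 2420 genes passed.

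Of 756 values of the 33 tested named members over 23 alternatives, 617 kept direction and call, 66 lost the call, 46 gained it and 27 changed sign. The sign changes were all in genes that had not passed. Atp5b was -0.21 under quantile normalization (limma adjusted p = 0.0147). With length and GC trends removed, with or without the block, Atp5b was -0.035, Atp5g2 -0.071, Atp5g3 -0.126, Ndufa10 -0.032 and Uqcrc1 -0.049, and with old replicate 3 also left out Atp5g2 was -0.137, Atp5g3 -0.121 and Uqcrc1 -0.038. With 1 library left out, Atp5g2 ran from -0.061 to 0.155, Atp5g3 from -0.040 to 0.097, Cyc1 from -0.061 to 0.062 and Uqcrc1 from -0.042 to 0.080. Cyc1 was 0.0041 under quantile normalization, 0.047 under median centring, 0.048 with weights and 0.12 without both libraries numbered 3. Sdha was 0.011 with weights and 0.030 without both libraries numbered 3.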
